A study of Homo sapiens with 4 samples.

Results

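The response to glucose was set side by side, gene by gene, in the hepatocellular carcinoma cell lines Huh7 and PLC, both wild type and both cultured for 48 h at 5 mM or 25 mM glucose. For each gene the log2 ratio of its FPKM (reads per kilobase of gene length, scaled to the reads of the library) at 25 mM over 5 mM was taken in Huh7 cells, and the same log2 ratio in PLC cells was subtracted. This difference of the responses is called the difference throughout: a positive value means that the ratio was higher in Huh7 cells, and a negative value that it was higher in PLC cells. All protein-coding genes with at least 50 reads in each of the 4 libraries were taken, which gave 10081 of the 19921 protein-coding genes and of the 59652 genes of the whole table. The cut was set on the read number in every library, so for genes near it membership also depends on the response. The 21 genes whose lowest library held exactly 50 reads had a median difference of -0.78 (from -1.93 to 0.73), and the 29 genes just outside, at 49 reads, one of -0.09 (from -1.79 to 1.49). At 51 reads the median was -0.27 (11 genes) and at 48 reads -0.30 (27 genes). The medians of these small groups thus varied without a clear step at the cut.

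The study asked which RNAs of liver cancer cells follow the glucose supply. The cells were grown in glucose-free DMEM with 10% serum to which 5 mM (low glucose) or 25 mM (high glucose) was added, and RNA without ribosomal RNA was sequenced with directional libraries. There was 1 library for each line and concentration, so no difference has a replicate check, and no test was possible. The 95% intervals given cover counting error only, compare these libraries and not the conditions, and leave out any variation between cultures.

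Gene reads numbered 21376239 (5 mM) and 30085303 (25 mM) for Huh7, and 30279716 and 16049686 for PLC cells. The liver label was checked on marker genes: ALB, AFP, APOB, SERPINA1, HNF4A, KRT8 and KRT18 were expressed in all 4 libraries. Not every liver marker checked was well expressed in PLC cells: TTR, for example, stood at 39.5 and 39.7 FPKM in Huh7 cells and at 0.061 and 0 in PLC cells. The leukocyte genes PTPRC and CD3E, the fibroblast genes COL1A1 and DCN and the endothelial gene VWF were at or near 0 (at most 0.104 FPKM). The other markers checked were not all absent: the endothelial gene PECAM1 stood at 2.37 and 2.55 FPKM in Huh7 and 0.115 and 0.290 in PLC cells, and the fibroblast gene COL1A2 at 0.273 and 0.387 in Huh7 cells and 0 in PLC cells. In such bulk RNA, fewer cells of one state and less RNA per cell cannot be told apart. The counting is not stated to use strand, and exons of 5099 members (50.6%) overlap another gene. This holds for 29 of the 83 genes chosen by rule, so that part of their reads may belong to a neighbour, among them LRG1, H2BC18, SAMD11, TES, HSPA1B, HCN2, CXCL5, FAM131A, FDPS, ACAT2, A2M, CP, TF, PRIM1, NOP58, RRP12, NOB1, SLC51A, SLC51B, AJUBA, PFKFB4, ZNF416, ZNF222, ZNF524, GNPNAT1, PDK1, YY1 and CCAR1.

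As background, a liver cell meets a rise in glucose with enzymes that burn it, store it as glycogen or fat, or attach it to proteins through the hexosamine pathway. Cholesterol synthesis in these cells is governed by the SREBP factors, which are held in the endoplasmic reticulum when sterols are abundant and are released to switch on the whole pathway when sterols run short. Low glucose can also slow the cell cycle and set off stress programmes, and cancer lines differ widely in how much of each they keep.

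PLC cells responded more strongly than Huh7 cells, and the difference was tilted toward higher ratios in PLC cells. The log2 ratios had an SD over genes of 0.35 in Huh7 and 0.63 in PLC cells, their medians were 0.04 and 0.07, and the ratio lay farther from 0 in PLC cells for 7003 genes (69.5%). A gene is said to have risen or fallen in a line where its ratio was above 1.5 or below 0.67 and the interval of the ratio excluded 1, which was so for 849 genes (8.42%) in Huh7 and 2718 (27.0%) in PLC cells. Of the 495 genes past these limits in both lines, 434 moved in the same direction and 61 in opposite ones. Across the 10081 genes, which are not independent replicates, Pearson's r between the responses was 0.414.

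The difference itself had a median of -0.03 and an SD of 0.58, its 5th and 95th percentiles were -1.09 and 0.77, and the median half-width of its counting interval was 0.19. It was above 1 for 222 genes, or 2.2% of all tested, and below -1 for 627, or 6.22%. Among these 849 genes the ratio lay farther from 0 in PLC cells for 747 and in Huh7 cells for 102. The size of this tilt depended on how libraries were scaled. With TMM factors from edgeR in place of the library totals, the median difference shifted by 0.14, and the share of these genes that lay below -1 was 57.1% instead of 73.9%, while with DESeq2 size factors it was 60.3%. Whether sequencing depth, lowest in the PLC library at 25 mM, took part in the wider spread of PLC ratios was not tested.

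**Figure D1:**
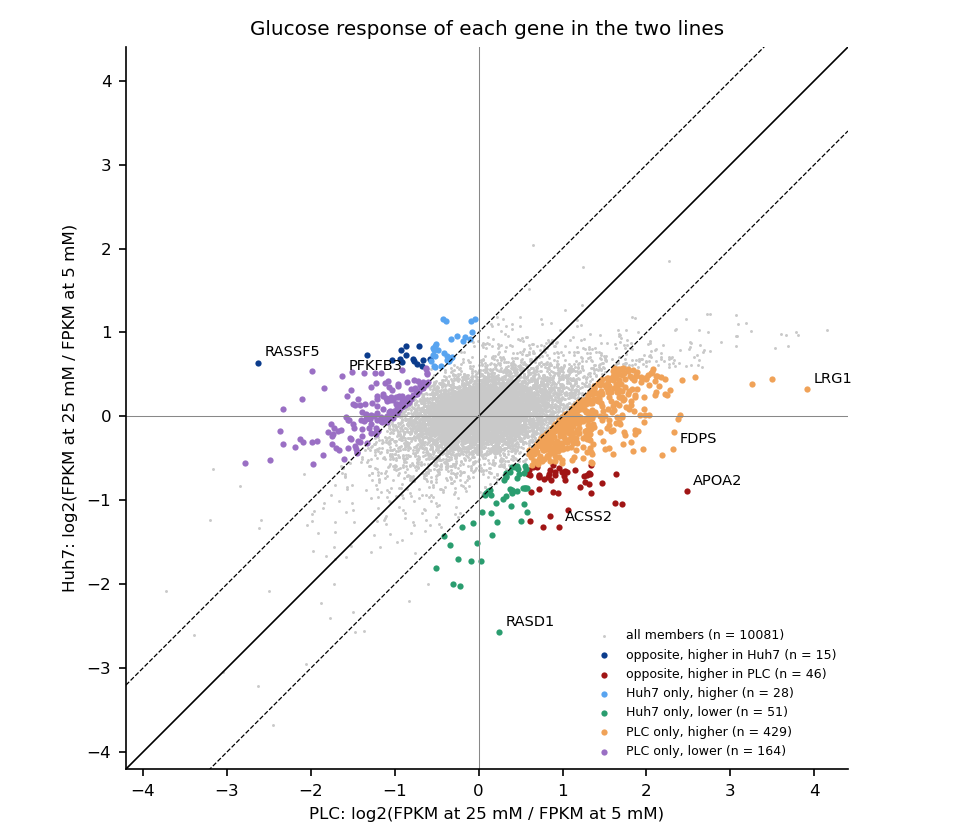
Each point is 1 of the 10081 genes, with the log2 ratio of FPKM at 25 mM over 5 mM glucose in PLC cells on the x axis and in Huh7 cells on the y axis, and colours mark the genes that moved in opposite directions or in 1 line only. The cloud is wider along the PLC axis (SD 0.63 against 0.35), and the 46 genes lower in Huh7 and higher in PLC cells outnumber the 15 with the opposite pattern.

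The levels of the lines were also set against each other at each concentration. At 5 mM the 627 genes with a difference below -1 were higher in Huh7 cells, with a median log2 of Huh7 over PLC FPKM of 1.07, and at 25 mM this median was -0.27. The 222 genes with a difference above 1 went from a median of -0.90 at 5 mM to 0.34 at 25 mM. The levels of the lines were closer to each other at 25 mM than at 5 mM for 388 of the 627 (61.9%) and for 134 of the 222 (60.4%), against 5517 of all 10081 (54.7%). Genes more than 2-fold apart between the lines fell in number from 394 to 276 in the first set and from 123 to 89 in the second, and from 3122 to 2729 over all members, so that closer levels at 25 mM were not particular to these genes. These levels come from the same 4 values as the difference, so they describe it and add no support to it.

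Opposite responses were rare. Only 15 genes (0.149% of all) rose in Huh7 and fell in PLC cells, and they were led by RASSF5, an adaptor of small GTPases that can restrain growth and that lies at chr1:206507531-206589448 on the plus strand (GRCh38). Its FPKM went from 2.32 to 3.62 in Huh7 cells and from 4.91 to 0.795 in PLC cells. The library with the highest level was PLC at 5 mM and the one with the lowest PLC at 25 mM, while both Huh7 libraries lay between them. The ratios were 1.56 (1.37 to 1.78) and 0.162 (0.129 to 0.201), and the difference of 3.27 (2.91 to 3.63) was the highest among genes with an FPKM over 1 in any library. APBB1IP, which links Ras signals to integrins, went from 3.47 to 6.03 FPKM in Huh7 and from 39.5 to 20.8 in PLC cells, with a difference of 1.73 (1.51 to 1.94). HCN2, a cation channel opened by hyperpolarization, went from 1.299 to 2.07 and from 2.76 to 1.35 FPKM, with a difference of 1.71 (1.199 to 2.21).

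The same group held the stress-inducible HSP70 genes HSPA1A and HSPA1B, which lie side by side on chromosome 6. HSPA1A went from 10.9 to 19.6 FPKM in Huh7 and from 50.5 to 27.6 in PLC cells, a difference of 1.71 (1.54 to 1.89). HSPA1B went from 3.92 to 6.51 and from 22.8 to 9.04 FPKM, a difference of 2.06 (1.78 to 2.35). In each case PLC cells stayed above Huh7 cells at both concentrations, and the gap narrowed. The coding sequences of the pair are nearly identical, so how reads were shared between them is uncertain. Across all 20 cytosolic heat shock proteins and co-chaperones of the list used here, 15 had a positive difference and these 2 passed 1, with a median of 0.28. Those next in size were CHORDC1 with 0.93, BAG3 with 0.77 and STIP1 with 0.76, while the constitutive HSPA8 had -0.16 and HSPB1, a small heat shock protein, -0.20. The other 10 genes of this group were UPF3B, DTX4, MELTF, WDR53, SERPINB9, AJM1, RGMB, SIAE, ZDHHC2 and JMJD6.

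The opposite pattern, a fall in Huh7 and a rise in PLC cells, was met by 46 genes (0.456%). The most extreme was APOA2, a main protein of high density lipoprotein, at chr1:161222292-161223631 on the minus strand. It went from 1054 to 569.9 FPKM in Huh7 cells and from 3.08 to 17.1 in PLC cells. Both Huh7 libraries lay far above both PLC libraries, so the lines moved toward each other. The ratios were 0.541 (0.530 to 0.552) and 5.57 (4.36 to 7.18), and the difference was -3.37 (-3.72 to -3.02). SLC16A9, a carnitine and creatine transporter of the monocarboxylate family, went from 5.34 to 2.60 FPKM in Huh7 and from 0.984 to 3.21 in PLC cells, so that the order of the lines turned over, with a difference of -2.75 (-3.11 to -2.38). GDA, the enzyme that deaminates guanine, went from 3.34 to 2.07 and from 2.23 to 6.95 FPKM, with a difference of -2.33 (-2.56 to -2.10). SLC2A6, a sugar transporter of lysosomes, went from 10.2 to 5.85 and from 3.65 to 9.05 FPKM, and its difference of -2.11 was the lowest of the 5 glucose transporters measured. NES, an intermediate filament protein, went from 39.2 to 24.3 and from 8.07 to 20.3 FPKM, with a difference of -2.02.

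Several of the 46 belong to lipid and chemokine groups taken up further on. ACSS2, which turns acetate into acetyl-CoA in the cytosol, went from 27.9 to 11.2 FPKM in Huh7 and from 5.07 to 9.85 in PLC cells, and its difference was -2.28 (-2.44 to -2.11). CXCL5, a chemokine that draws neutrophils, went from 6.01 to 2.93 and from 31.5 to 96.9 FPKM, with a difference of -2.66 (-2.92 to -2.40). For CXCL5 the PLC libraries stayed above those of Huh7 and the gap widened, unlike for ACSS2, where Huh7 stayed above PLC cells and the gap narrowed.

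**Figure D2:**
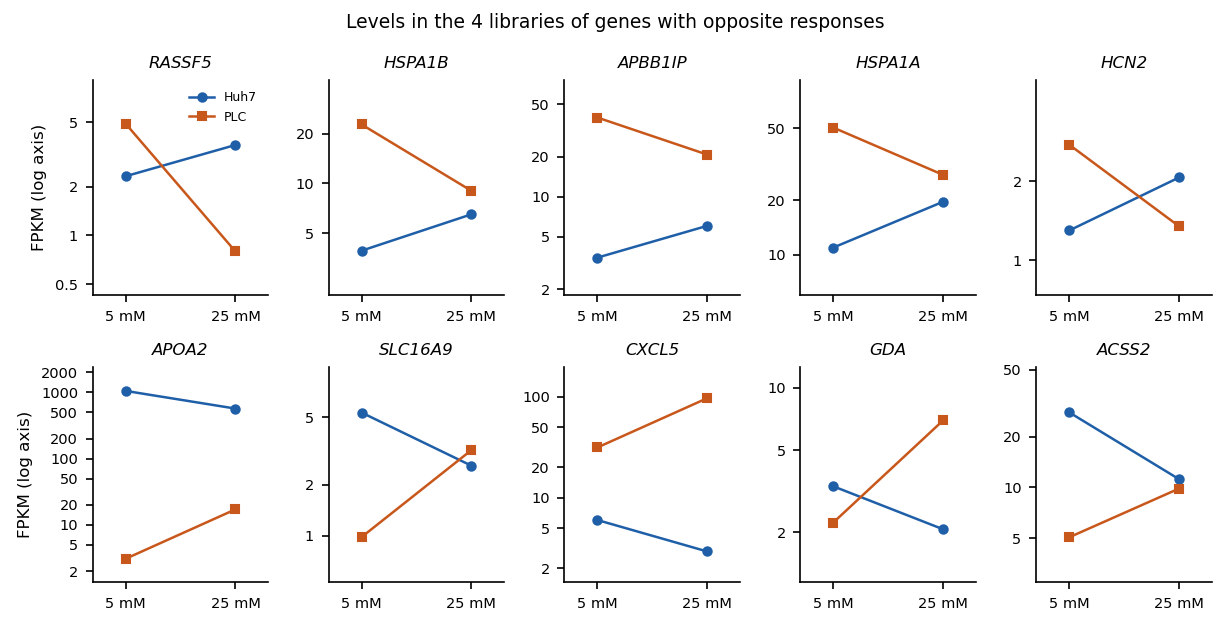
Each panel gives the FPKM of 1 gene (log axis) at 5 mM and 25 mM glucose, with 1 line for Huh7 and 1 for PLC cells and no error bars because each point is 1 library. The lines of RASSF5, HSPA1B, APBB1IP, HSPA1A and HCN2 slope up in Huh7 and down in PLC cells, and those of APOA2, SLC16A9, CXCL5, GDA and ACSS2 slope the other way.

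A response in Huh7 cells only, with a difference past 1, was seen for 28 genes that rose (0.278%) and 51 that fell (0.506%). Of the 51 that fell, 34 remained in this class under TMM and 35 under DESeq2 factors. The strongest fall was that of RASD1, a Ras-like protein induced by glucocorticoids, from 10.4 to 1.75 FPKM in Huh7 cells against 10.9 and 12.9 in PLC cells. Its Huh7 ratio was 0.169 (0.133 to 0.212), and its difference of -2.81 (-3.19 to -2.43) was larger than that of any other gene of this class with 200 reads or more. Secreted factors were among those that fell. GDF15, a stress cytokine, went from 99.2 to 24.5 FPKM in Huh7 and from 380 to 325 in PLC cells, with a difference of -1.79 (-1.88 to -1.70), and EDN1, the vasoconstrictor endothelin, from 3.91 to 0.98 and from 17.9 to 14.5, with -1.69 (-2.14 to -1.24). F7, a clotting protease, went from 9.25 to 3.91 and from 2.54 to 3.61 FPKM, with -1.75 (-2.05 to -1.45), and PARP3, a DNA repair enzyme, from 2.03 to 0.613 and from 9.42 to 9.60, with -1.75 (-2.24 to -1.27).

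Some genes linked to gluconeogenesis and the urea cycle were in the same class. PCK2, the mitochondrial form of phosphoenolpyruvate carboxykinase, went from 24.4 to 8.61 FPKM in Huh7 cells and stood at 46.8 and 46.2 in PLC cells, with a difference of -1.49. PPARGC1A, a coactivator of gluconeogenesis and mitochondrial genes, went from 1.24 to 0.495 and from 2.96 to 2.58 FPKM, with -1.12. ASS1, an enzyme of the urea cycle, went from 11.2 to 3.18 and from 474 to 334 FPKM, with -1.30. The PLC levels of these 3 genes were above both Huh7 levels, and with library totals as the scale their PLC ratios did not pass 0.67. They were named after their values had been seen, and the 15 genes of gluconeogenesis and glycogen as a list had a median difference of -0.11, with 2 below -1 and 0 above 1. GDF15 and PCK2 are both targets of the amino acid response, the programme of ATF4. As a list its 26 genes had median log2 ratios of -1.49 in Huh7 and -1.39 in PLC cells, and the median difference was -0.06, with 4 genes below -1 and ATF3 above 1.

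Of the genes that rose in Huh7 cells only, GPR161, a receptor of the Hedgehog pathway, had the largest difference. It went from 0.267 to 0.595 FPKM in Huh7 and from 2.07 to 1.55 in PLC cells, with 1.58 (1.12 to 2.03). SMIM3, FAM131A, ZBTB18 and APBB1 followed with differences of 1.52, 1.38, 1.36 and 1.35. All 5 were low, at 5.18 FPKM or less in every library, and the intervals of their differences reached down to between 0.83 and 1.12. The call rested on the scaling: under TMM factors the PLC ratios of GPR161 (0.668), FAM131A (0.626), ZBTB18 (0.621) and APBB1 (0.615) lay below 0.67, which makes these 4 opposite, and of the 28 genes of the class 16 remained in it under TMM and 17 under DESeq2 factors.

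A response in PLC cells only was by far more common, with 429 genes that rose (4.26%) and 164 that fell (1.63%). Under TMM scaling the numbers were 296 and 270, so the size of this lead depended on the scaling. LRG1, a secreted glycoprotein of the acute phase at chr19:4536402-4540036 on the minus strand, had the lowest difference of the genes with an FPKM over 1 in any library. It stood at 1.44 and 1.80 FPKM in Huh7 cells and at 1.69 and 25.4 in PLC cells, so 3 of the libraries were alike and PLC at 25 mM stood apart. Its ratios were 1.25 (0.948 to 1.66) and 15.0 (12.6 to 18.1), with a difference of -3.59 (-4.05 to -3.12). FRMD5, a membrane adaptor, went from 0.867 to 0.631 FPKM in Huh7 and from 0.419 to 1.91 in PLC cells, with -2.64 (-3.15 to -2.13).

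Among the genes that fell in PLC cells only were SAMD11, FOSL1, IL18, TES, SIPA1L2, CYP1A1 and PFKFB3. FOSL1, an AP-1 subunit, stood at 2.65 and 2.82 FPKM in Huh7 cells and went from 10.1 to 2.01 in PLC cells, with a difference of 2.41 (1.89 to 2.93). IL18, an inflammatory cytokine, stood at 4.24 and 4.89 and went from 46.5 to 10.8, with 2.31 (2.04 to 2.59). CYP1A1, a detoxifying enzyme induced through the aryl hydrocarbon receptor, stood at 22.2 and 28.1 and went from 78.2 to 21.8, with 2.19 (2.06 to 2.31). In each of them PLC at 5 mM stood apart from the other 3 libraries, and at 25 mM the PLC level was nearer to that of Huh7 cells. TES, a focal adhesion protein, went from 27.8 to 18.9 FPKM in Huh7 and from 33.9 to 4.92 in PLC cells, with 2.23 (2.05 to 2.40), but its Huh7 ratio of 0.678 missed the limit of 0.67 by little and passed it under TMM factors (0.665), DESeq2 factors (0.668) and centring (0.658). SAMD11, with 2.53 (2.12 to 2.93), likewise had a Huh7 ratio of 1.45, close to the limit of 1.5, and SIPA1L2, which regulates Rap GTPases, had 2.20 (1.88 to 2.51). S100P, a calcium-binding protein, fell in both lines, from 281 to 181 FPKM and from 152 to 16.9, with a difference of 2.53 (2.27 to 2.80).

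To describe pathways, 50 gene lists were laid over the differences. The 6 with the lowest and the 6 with the highest median among the 49 lists with at least 5 members are described, beside the median of -0.03 over all members and the background of 2.2% above 1 and 6.22% below -1. All 12 medians, that of bile acid handling included, kept their sign under TMM factors, DESeq2 size factors and centring. Among the other lists, those with a median from -0.14 to 0 turn positive under TMM factors, which add 0.14 to every difference.

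**Figure D3:**
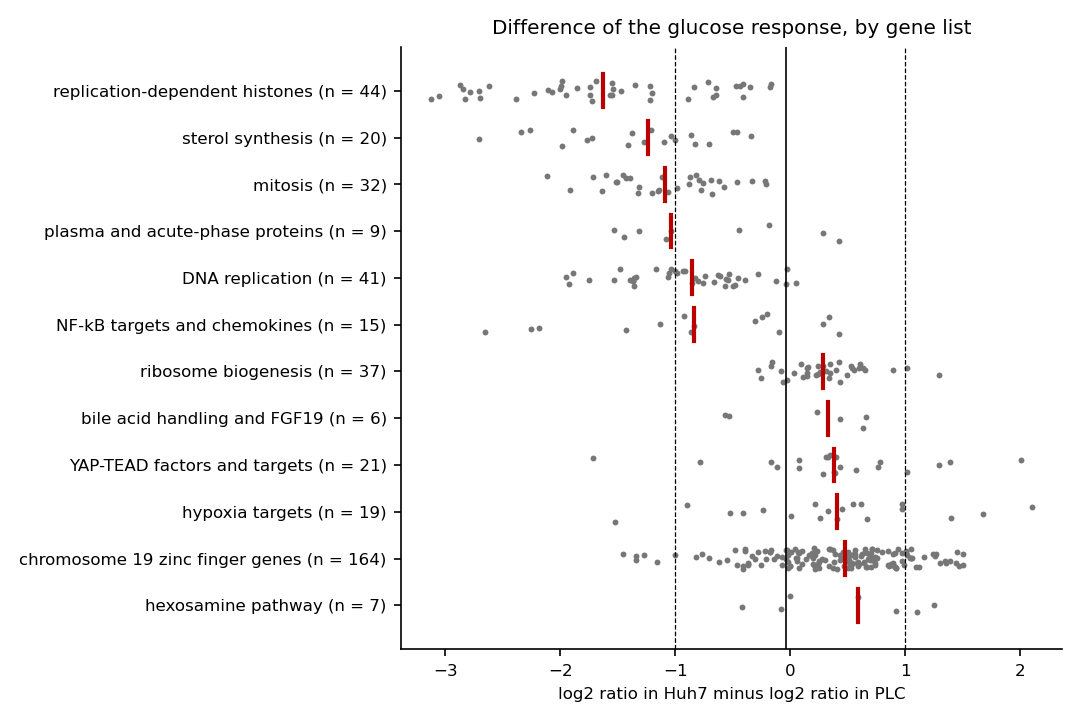
The difference (log2 ratio in Huh7 minus log2 ratio in PLC) of each member of the 12 lists is a point, with 1 row per list and a bar at the list median. Histones, sterol synthesis and mitosis lie wholly to the left of 0, and the lists from ribosome biogenesis to the hexosamine pathway are centred to the right of it.

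Sterol synthesis had ratios on opposite sides of 1 in the lines. Of its 20 genes, all 20 had a ratio under 1 in Huh7 cells and over 1 in PLC cells, under every scaling tried, and the interval excluded 1 for 17 of them in Huh7 and 20 in PLC cells. The median difference was -1.24, from median log2 ratios of -0.33 and 0.87, and 14 genes lay below -1 and 0 above 1. By the stricter limits for rises and falls, 2 genes with a difference past 1 were opposite, 1 fell in Huh7 cells only and 11 rose in PLC cells only.

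The genes up to LSS are given in the order of the pathway, apart from IDI1, and those of the later steps are not. ACAT2, which joins acetyl-CoA units at the start, went from 81.0 to 62.0 FPKM in Huh7 and from 12.2 to 47.4 in PLC cells, with a difference of -2.34 (-2.47 to -2.22). HMGCS1, the next enzyme, had -0.71. Of the steps that make the isoprene units, MVK and PMVK had -0.50 and -0.46. MVD, which closes these steps, went from 44.5 to 25.8 and from 6.86 to 19.1 FPKM, with -2.26 (-2.40 to -2.13). FDPS, which makes farnesyl diphosphate, had the largest difference of the pathway: it went from 23.4 to 17.9 FPKM in Huh7 and from 2.55 to 12.7 in PLC cells, with ratios of 0.763 (0.716 to 0.813) and 4.98 (4.34 to 5.72) and a difference of -2.71 (-2.92 to -2.49). Huh7 cells were thus higher than PLC cells at 5 mM for each of ACAT2, MVD and FDPS, and the gap was smaller at 25 mM.

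FDFT1, SQLE, LSS and IDI1 had differences smaller in size than those of ACAT2, MVD and FDPS. FDFT1, which makes squalene, went from 50.04 to 38.2 and from 5.73 to 16.2 FPKM, with -1.89. SQLE had -1.03 and IDI1, which supplies an isoprene unit, -1.10, and LSS, which folds squalene into lanosterol, went from 41.3 to 23.0 and from 15.9 to 23.4 FPKM, with -1.41, falling in Huh7 cells only. In the later steps TM7SF2, EBP, HSD17B7, MSMO1 and CYP51A1 had differences from -1.77 to -1.21, NSDHL and SC5D had -0.86 and -0.83, and DHCR7, the last enzyme of one of the branches, went from 127 to 79.5 and from 39.7 to 98.5 FPKM, with -1.98. At 25 mM DHCR7 was higher in PLC than in Huh7 cells.

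**Figure D4:**
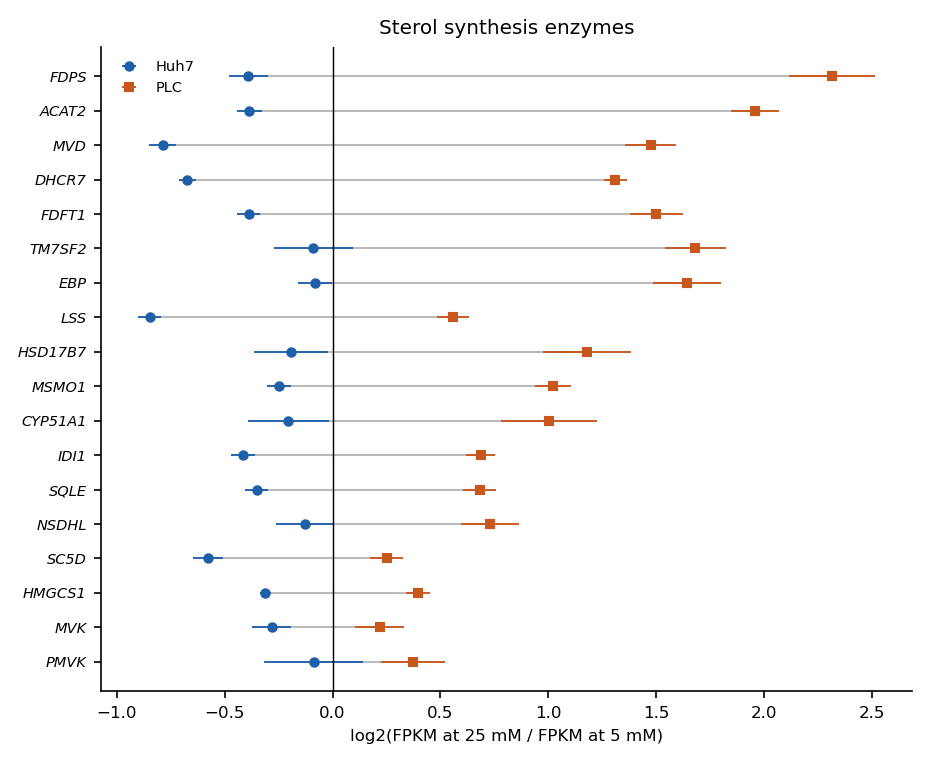
For 18 of the 20 sterol synthesis genes the log2 ratio of FPKM at 25 mM over 5 mM glucose is given on the x axis for Huh7 and PLC cells, with bars for the 95% counting interval. All Huh7 points lie left of 0 and all PLC points right of it, farthest apart for FDPS (difference -2.71) and nearest for PMVK (-0.46).

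Promoters of these genes commonly pair an SREBP site with a site of NF-Y, a factor that binds the CCAAT box and assists SREBP. Because these genes moved together, the 250 bases before the RefSeq start of each gene (GRCh38.p14) were searched for CCAAT on either strand. It was found for 12 of the 15 sterol synthesis genes with a promoter in the tables (80.0%), for 36.2% of the 8417 members with one, and for 32.0% of all 35116 RefSeq promoters. The SREBP motif in its narrow spelling TCACNCCAC was found in 0 of the 15 and in 0.82% of the members, which says only that these letters are not in these windows. The CCAAT windows of 5 genes with differences of -1.41 or lower are shown 5′ to 3′ on the strand of the gene, with the box in capitals. They are chr1:155308670-155308714 (plus, box 176 bases before the start) for FDPS, chr16:88663226-88663270 (minus, 159) for MVD, chr11:65111778-65111822 (plus, 74) for TM7SF2, chrX:48521718-48521762 (plus, 70) for EBP and chr21:46228900-46228944 (minus, 150) for LSS. A match is a description of the letters and not a bound site, and all 5 boxes shown read ATTGG, so that CCAAT lies on the other strand. FDPS, MVD and EBP hold further boxes that are not shown.
FDPS: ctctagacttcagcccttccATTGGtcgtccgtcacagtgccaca
MVD: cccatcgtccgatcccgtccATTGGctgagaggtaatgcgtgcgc
TM7SF2: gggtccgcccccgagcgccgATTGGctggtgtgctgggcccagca
EBP: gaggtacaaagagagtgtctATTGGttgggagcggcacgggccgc
LSS: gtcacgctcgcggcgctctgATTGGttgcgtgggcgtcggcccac

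The genes around the pathway went the same way, with smaller differences. In the list of sterol uptake and SREBP control, 4 of 15 genes lay below -1 and 0 above 1, with a median of -0.47. INSIG1, which retains SREBP and is itself a target of it, went from 53.3 to 44.3 FPKM in Huh7 and from 7.76 to 19.3 in PLC cells, with a difference of -1.58. STARD4, a sterol carrier, was opposite, from 21.7 to 13.7 and from 5.97 to 11.2 FPKM, with -1.57. The factors themselves differed less, with -0.39 for SREBF2 and -0.47 for SREBF1, and NPC1, which exports cholesterol from lysosomes, went against the list with 0.54. Of the 16 genes of fatty acid synthesis, ACSS2 alone passed 1 in either direction, and the median was -0.59. ACLY, SCD and FASN followed with -0.99, -0.92 and -0.76. In triglyceride storage, by contrast, 3 of 15 genes lay above 1 and 0 below -1, with a median of -0.03. DGAT2, the last enzyme of triglyceride synthesis, stood at 5.38 and 5.93 FPKM in Huh7 cells and went from 2.04 to 0.733 in PLC cells, with 1.62, and PLIN2, a coat protein of lipid droplets, went from 40.5 to 31.1 and from 28.5 to 8.74 FPKM, with 1.32.

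Genes of the cell cycle had median ratios above 1 in both lines, and higher ones in PLC cells. Replication-dependent histones, which package new DNA, had the lowest median of all lists. Of 44 genes, 31 lay below -1 and 0 above 1, all 44 differences were negative, and the median was -1.63, from median log2 ratios of 0.74 in Huh7 and 2.24 in PLC cells. H3C13 went from 157 to 322 FPKM in Huh7 and from 5.92 to 105 in PLC cells, with ratios of 2.05 (1.93 to 2.17) and 17.8 (14.2 to 22.6) and a difference of -3.12 (-3.45 to -2.79). H2BC18 went from 52.5 to 71.3 and from 3.93 to 44.5 FPKM, with -3.06 (-3.22 to -2.89), and H2BC10 from 34.1 to 44.4 and from 12.2 to 116, with -2.87 (-3.17 to -2.57). H2AC12, H2BC14 and H2AC4 had differences of -2.84, -2.83 and -2.78. The gene farthest against the list was H3C6 with -0.17 (-0.49 to 0.15), whose interval includes 0. Histone genes of one type are near-identical copies, so the split of reads between single copies is uncertain.

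The list of DNA replication had 41 genes, of which 16 lay below -1, 0 above 1 and 40 below 0, with a median of -0.85. RRM2, the subunit of ribonucleotide reductase that limits the supply of DNA building blocks, went from 21.3 to 37.0 FPKM in Huh7 and from 2.11 to 13.6 in PLC cells, with -1.89 (-2.03 to -1.75). PRIM1, a primase, went from 5.96 to 7.195 and from 1.17 to 5.46 FPKM, with -1.95 (-2.33 to -1.57), and MCM10, which starts forks, from 10.5 to 15.9 and from 2.41 to 13.9, with -1.92 (-2.11 to -1.73). RFC2, a clamp loader, had 0.05 (-0.15 to 0.25). In these genes the PLC library at 5 mM was the lowest of the 4, except for RFC2, where Huh7 at 5 mM was.

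Mitosis genes showed the same. All 32 differences were negative, 17 lay below -1 and 0 above 1, and the median was -1.09, from 0.62 in Huh7 and 1.69 in PLC cells. CCNB1, the cyclin that drives entry into mitosis, went from 61.2 to 84.5 FPKM in Huh7 and from 9.88 to 59.2 in PLC cells, with ratios of 1.38 (1.32 to 1.44) and 5.99 (5.51 to 6.52) and a difference of -2.12 (-2.25 to -1.98). MKI67, the proliferation marker, went from 57.3 to 97.3 and from 5.97 to 38.2 FPKM, with -1.92 (-1.99 to -1.84). ASPM, a protein of spindle poles, went from 42.4 to 58.6 and from 5.04 to 22.8 FPKM, with -1.71 (-1.80 to -1.62). The spindle kinase AURKA had the smallest difference, with 37.8 and 64.1 FPKM in Huh7 and 42.5 and 83.6 in PLC cells, or -0.21 (-0.31 to -0.12). Since the cell cycle genes of PLC cells were low at 5 mM, the share of dividing cells and RNA per cell cannot be told apart, and its part in the differences of other lists was not tested.

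Genes of mitosis and of DNA replication differ in a promoter element called CHR, read by the DREAM and MuvB complexes, so their promoters were searched for TTTGAA on either strand. It was found for 14 of 27 mitosis genes with a promoter in the tables (51.9%), 1 of 36 DNA replication genes (2.78%), 32.5% of histone genes, 8.19% of the members and 13.3% of all RefSeq promoters. CCAAT was found for 74.1% of mitosis and 85.0% of histone genes. The CHR windows of 4 mitosis genes with differences from -1.92 to -1.45 are shown 5′ to 3′ on the strand of the gene, all on the minus strand, with the element in capitals. They are chr10:128126445-128126490 for MKI67 (47 bases before the start), chr1:197146757-197146802 for ASPM (113), chr14:55191669-55191714 for DLGAP5 (109) and chr17:40418022-40418067 for TOP2A (151). MKI67 reads TTTGAA and the others TTCAAA, the same element on the other strand. The MKI67 window also holds a second match, left in lower case, and DLGAP5 and TOP2A hold a further match outside the windows shown.
MKI67: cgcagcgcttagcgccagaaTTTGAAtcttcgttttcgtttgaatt
ASPM: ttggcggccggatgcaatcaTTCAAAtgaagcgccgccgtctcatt
DLGAP5: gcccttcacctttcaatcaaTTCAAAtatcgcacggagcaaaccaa
TOP2A: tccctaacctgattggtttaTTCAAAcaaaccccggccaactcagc

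Plasma and acute-phase proteins also had a higher median ratio in PLC cells. Of the 28 genes listed, 9 had enough reads. Among these 9, 5 lay below -1 and 0 above 1, and the median was -1.03. AFP, the fetal albumin used as a tumour marker, went from 1256 to 1434 FPKM in Huh7 and from 306.3 to 1011 in PLC cells, with ratios of 1.14 (1.13 to 1.15) and 3.30 (3.25 to 3.35) and a difference of -1.53 (-1.56 to -1.51). A2M, a protease inhibitor, went from 55.0 to 51.8 and from 270 to 696 FPKM, with -1.45 (-1.495 to -1.40), and CP, the copper carrier ceruloplasmin, from 0.959 to 1.96 and from 2.07 to 10.5, with -1.31 (-1.63 to -0.9998). SERPINA1 and ITIH2 had -1.08 and -1.03. ALB had -0.45, and TF, the iron carrier transferrin, went against the list with 0.42 (0.36 to 0.48). Of 9 genes of apolipoproteins and lipoprotein assembly, APOA2 alone passed 1 in size, while APOB had -0.24 and APOE -0.34. The 16 genes of complement and coagulation had a median of -0.28, with 2 below -1 and 0 above 1.

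NF-kB targets and chemokines were split. Of 15 genes, 5 lay below -1 and 0 above 1, 12 were negative, and the median was -0.84, with median log2 ratios of -0.41 in Huh7 and 0.46 in PLC cells. The response was opposite for 4 of them: CXCL5, given above, CCL20, CXCL1 and ICAM1. CCL20, which draws lymphocytes and dendritic cells, went from 91.5 to 48.5 FPKM in Huh7 and from 29.2 to 74.0 in PLC cells, with ratios of 0.530 (0.502 to 0.559) and 2.53 (2.36 to 2.72) and a difference of -2.26 (-2.38 to -2.13). CXCL1, a neutrophil chemokine, went from 8.90 to 4.10 and from 8.61 to 18.1 FPKM, with -2.19 (-2.54 to -1.84). The levels of CXCL1 were close at 5 mM and apart at 25 mM. ICAM1, an adhesion molecule for leukocytes, went from 15.0 to 9.19 and from 38.7 to 63.8 FPKM, with -1.43. The inhibitor TNFAIP3 had -1.13, with a rise in PLC cells only. CXCL8, a chemokine of the same family, did not follow: it fell in both lines, from 3.87 to 2.05 and from 178 to 101 FPKM, with -0.10. NFKB1, a subunit of the factor, went farthest against the list with 0.43 (0.28 to 0.58). The leukocyte genes PTPRC and CD3E were at or near 0 in every library.

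On the other side, the highest median was that of the hexosamine pathway, which makes the sugar that is put on proteins as O-GlcNAc. Of its 7 genes, 5 had a positive difference, 2 lay above 1 and 0 below -1, with a median of 0.59. OGA, the enzyme that removes O-GlcNAc, went from 10.4 to 19.8 FPKM in Huh7 and from 23.5 to 18.7 in PLC cells, with ratios of 1.90 (1.79 to 2.01) and 0.796 (0.756 to 0.837) and a difference of 1.25 (1.14 to 1.36). OGT, the enzyme that adds it, went from 19.1 to 15.4 and from 82.7 to 31.1 FPKM, with 1.10 (1.03 to 1.18). The positive differences of the pair thus came from a rise of OGA in Huh7 cells and a fall of OGT in PLC cells. GFPT1, which controls entry into the pathway, went from 27.5 to 30.8 and from 56.8 to 33.7 FPKM, with 0.92 (0.85 to 0.99), or 1.06 under TMM and 1.03 under DESeq2 factors, and GNPNAT1 went against the list with -0.41 (-0.54 to -0.29).

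Hypoxia targets, genes of the HIF factors that include glycolytic regulators, had a median difference of 0.41, from 0.41 in Huh7 and -0.13 in PLC cells. Without genes whose exons overlap another, the median of the 7 targets left was 0.97, above that of the 5 hexosamine pathway genes left (0.92). Of 19 genes, 14 had a positive difference, 3 lay above 1 and 1 below -1. PFKFB3, which makes the activator of glycolysis fructose 2,6-bisphosphate, went from 10.7 to 15.0 FPKM in Huh7 and from 83.8 to 27.2 in PLC cells, with a difference of 2.10 (1.99 to 2.21). Its relative PFKFB4 moved the other way in PLC cells, from 1.94 to 2.57 and from 0.963 to 3.67 FPKM, with -1.53 (-1.87 to -1.19), and was the gene farthest against the list. ADM, a vasodilator peptide, went from 4.04 to 5.80 and from 17.9 to 8.01 FPKM, with 1.68 (1.38 to 1.98). NDRG1, a stress protein, rose in both lines, the PLC ratio of 1.57 dropping to 1.40 under TMM and 1.43 under DESeq2 factors, and went from 1.35 to 5.57 and from 0.275 to 0.431 FPKM, with 1.40 (0.95 to 1.85). SLC2A1, the glucose transporter GLUT1, went from 10.2 to 12.8 and from 7.92 to 5.04 FPKM, with 0.97. VEGFA and DDIT4 fell in both lines, with differences of 0.26 and -0.90. The 11 glycolytic enzymes as such, with median log2 ratios of 0.28 and 0.24, had a median difference of -0.08 and 0 genes past 1 in either direction.

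**Figure D5:**
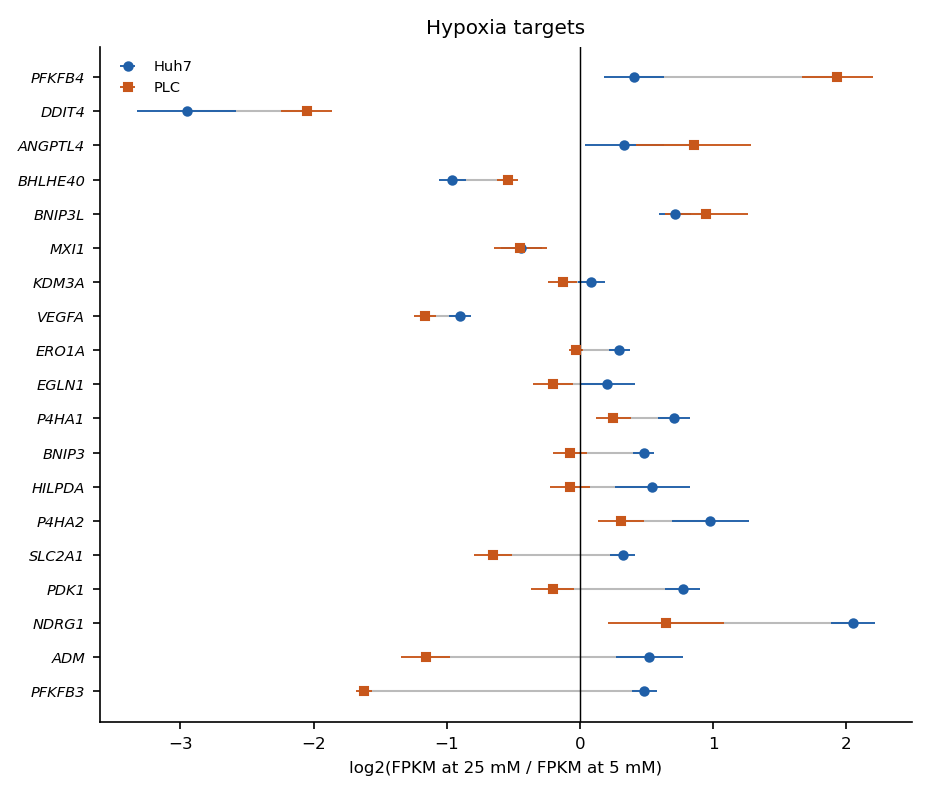
For each of the 19 hypoxia targets the log2 ratio of FPKM at 25 mM over 5 mM glucose is given on the x axis for Huh7 and PLC cells, with bars for the 95% counting interval. The Huh7 points lie to the right of the PLC points for 14 genes, most for PFKFB3 (difference 2.10), and PFKFB4 is the clearest exception (-1.53).

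Zinc finger genes of chromosome 19, most of which encode KRAB repressors of mobile elements, formed the largest list. Of 164 genes, 123 had a positive difference, 22 lay above 1 and 6 below -1, with a median of 0.48. The median log2 ratio was 0.02 in Huh7 and -0.45 in PLC cells. ZNF274, a repressor that binds other zinc finger genes, stood at 3.63 and 3.53 FPKM in Huh7 cells and went from 8.99 to 3.09 in PLC cells, with ratios of 0.973 (0.878 to 1.08) and 0.344 (0.309 to 0.382) and a difference of 1.5025 (1.29 to 1.71). ZNF416 and ZNF222 followed with 1.5003 (1.05 to 1.95) and 1.47 (0.99 to 1.957), and ZNF524 went against the list with -1.45 (-1.98 to -0.93). These genes share sequence with each other, so that single members are uncertain. Chromosome 19 as a whole had 4.88% of its 697 members above 1, against 2.2% of all, but without the zinc finger list the share was 12 of 533 (2.25%).

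YAP-TEAD factors and targets, which follow cell shape and density, had a median of 0.38, and 17 of 21 genes were positive, with 4 above 1 and 1 below -1. NUAK2, a kinase of the AMPK family, stood at 1.81 and 1.44 FPKM in Huh7 cells and went from 11.4 to 2.26 in PLC cells, with 2.01 (1.57 to 2.44). AJUBA, an adaptor of cell junctions, fell in both lines, from 53.4 to 33.3 and from 70.6 to 16.8 FPKM, with 1.39 (1.302 to 1.48), and CCN1, a matrix protein, from 20.7 to 8.27 and from 33.1 to 5.39, with 1.29 (1.09 to 1.49). NT5E, the enzyme CD73, went the other way, from 23.1 to 17.1 and from 7.42 to 18.1 FPKM, with -1.72 (-1.86 to -1.57).

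Ribosome biogenesis had a median of 0.29, from -0.03 in Huh7 and -0.33 in PLC cells, and 30 of 37 genes were positive, with 2 above 1 and 0 below -1. NOP58, a core protein of the particles that methylate ribosomal RNA, stood at 48.8 and 49.4 FPKM in Huh7 cells and went from 69.2 to 28.5 in PLC cells, with 1.296 (1.19 to 1.40). RRP12 and RRP9, factors of ribosome assembly, had 1.02 (0.89 to 1.14) and 0.90 (0.69 to 1.11; 1.03 under TMM and 1.01 under DESeq2 factors), and NOB1 had -0.28 (-0.46 to -0.09). The 80 cytosolic ribosomal proteins themselves had a median of -0.10 with 1 gene below -1 and 0 above 1. Bile acid handling held 6 genes, 4 of them positive and 0 past 1, with a median of 0.33 that did not hold: it was 0.0143 with a minimum of 20 reads and -0.15 with a minimum of 200 reads. NR0B2, the receptor SHP that shuts down bile acid synthesis, had 0.66 (0.19 to 1.14), the transporter subunits SLC51A and SLC51B had 0.64 (0.15 to 1.12) and -0.56 (-0.82 to -0.31), and KLB, a coreceptor of FGF19, had 0.43 (0.32 to 0.54).

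PDK1, a kinase that inhibits pyruvate dehydrogenase, went from 2.15 to 3.67 FPKM in Huh7 and from 2.22 to 1.93 in PLC cells. Of the protein-coding genes of the study compared here, PDK1, CCAR1, YY1 and YBX1, it had the largest difference, 0.98 (0.77 to 1.18). This is under 1 by little, and the difference was 1.11 under TMM factors, 1.09 under DESeq2 factors and 1.0004 with centring, where PDK1 counts as a rise in Huh7 cells only. CCAR1 had 0.63 (0.53 to 0.74), YY1 0.38 (0.28 to 0.47) and YBX1, an RNA-binding protein, -0.25 (-0.30 to -0.21). The 75 subunits of the respiratory chain had a median of -0.19, with 1 below -1 and 0 above 1.

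Genes with large differences shared some features, of which length, GC content and promoter letters had not been used by the selection. Those below -1 were shorter, with a median length of 4254 bases against 5474 for all members, and had a GC content of 51.7% against 46.9%. For those above 1 the medians were 5000.5 bases and 49.5%. When genes were split into 5 bins by length, 9.92% of the shortest and 3.72% of the longest lay below -1. From the lowest to the highest of 5 bins of GC content this share ran from 4.16% to 10.3%. Across all members, which are not independent, the difference had a Pearson's r of 0.11 with length and -0.08 with GC content. With the trends of both removed, 784 genes lay past 1 instead of 849, and 734 genes were in both sets. Genes past 1 were also of lower level, with a median geometric mean FPKM of 4.54 above 1 and 5.05 below -1 against 7.85 for all. This level comes from the same reads as the difference and the read cut, so it is not independent of the selection. CCAAT was found for 46.6% of the promoters below -1 and 39.5% of those above 1, against 36.2% of all. Without replication-dependent histones the share below -1 was 43.7%, and the median length and GC content of this set were 4446 bases and 51.2%. The zinc finger list of chromosome 19, with a positive median difference of 0.48, had CCAAT in 48.6%.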

How the data were processed

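Total RNA was extracted with TRIzol, depleted of ribosomal RNA and made into directional libraries, 1 for each line and glucose concentration. The deposited table holds raw read counts per gene, which the authors made on hg38, and the submitters' processing notes name HISAT2 and featureCounts without versions. Neither the annotation nor a strand setting for featureCounts is given in the sources used here. FPKM was computed as reads over the tabulated gene length and the library total. No constant was added. Of 59657 lines, 5 were left out. Protein-coding genes were taken from GENCODE release 44 by symbol, then by position (reciprocal overlap of at least 0.5). Ratio intervals are exact (Clopper-Pearson, 95%), and those of the difference are from the sum of reciprocal counts on the log scale. The interval calculation was tested on simulated data. With 1 library per condition there are 0 residual degrees of freedom, so edgeR 4.0.16 and DESeq2 1.42.0 (R 4.3.3) gave scaling factors only, and Python 3.11.15 was used for the rest.

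Depth was 16049686 to 30279716 reads per library. The members and gene lists were chosen with earlier results of these data known. Genes were named by rule: the 10 highest and 10 lowest differences with FPKM over 1, the 5 largest per class with at least 200 reads in the highest library, the 3 leading members and 1 opposing member of the 12 lists, and 4 genes of the study. Other names were chosen after their values were seen. Alternatives tried were other scalings, read minimums of 20 and 200, a constant of 0.1 FPKM, removal of length and GC trends, removal of overlapping genes, and other thresholds. Results for a few of these genes are not reported here.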

Additional observations from a re-analysis of the deposited data

Results flagged for a closer look

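These results were singled out because the responses of the lines pointed in opposite directions, with ratios past 1.5 in one line and below 0.67 in the other or, for the 12 lists described, median log2 ratios of opposite sign that were both more than 0.2 from 0. Each rests on 1 library per condition, and the difference was not tested. The 5 largest differences (Huh7 minus PLC, log2) of genes that rose in Huh7 and fell in PLC cells were those of RASSF5 (3.27), HSPA1B (2.06), APBB1IP (1.73), HSPA1A (1.71) and HCN2 (1.71). The 5 largest of genes with the opposite pattern were those of APOA2 (-3.37), SLC16A9 (-2.75), CXCL5 (-2.66), GDA (-2.33) and ACSS2 (-2.28). Of the 12 lists described, sterol synthesis had a median difference of -1.24, and NF-kB targets and chemokines had one of -0.84.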

How the results depend on the processing

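No paired analysis was possible because each condition had 1 library, and no replicate could be left out. Causes of the changes below were not tested, beyond the smaller sets that stricter filters leave. The number of genes with a difference above 1 went from 222 to 346 with TMM factors, 113 with at least 200 reads, 109 without overlapping genes and 53 at a threshold of 1.5. The number below -1 went from 627 to 366 with 200 reads, 329 without overlaps and 188 at 1.5. Genes opposite and higher in Huh7 cells went from 15 to 23 with TMM, 6 with 200 reads, 6 without overlaps and 0 at ratios of 2 and 0.5, and those higher in PLC cells from 46 to 24, 29 and 3 under the last 3 of these. The 79 genes that moved in Huh7 cells only became 128 with 20 reads, 27 with 200, 40 without overlaps and 33 at ratios of 2 and 0.5, and the 593 in PLC cells only became 352 with 200 reads and 293 without overlaps.

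Median differences moved to -1.10 for sterol synthesis with TMM, to -0.90 (TMM), -0.92 (DESeq2 factors) and -0.74 (200 reads) for plasma proteins, and to -0.57 for NF-kB targets with 20 reads. They moved to 0.42 (TMM) and 0.15 (no overlaps, 16 genes left) for ribosome biogenesis, and to 0.97 for hypoxia targets without overlaps (7 genes left). For the hexosamine pathway they moved to 0.73 (TMM), 0.70 (DESeq2) and 0.92 (no overlaps, 5 genes left). Bile acid handling moved to 0.0143 with 20 reads and reversed to -0.15 with 200 reads. Of the 83 genes named by rule, TMM moved 25 by more than their counting interval, DESeq2 factors 18, the length and GC correction 7 and centring 1. With 0.1 FPKM added, the named genes stayed within it. The read minimums of 20 and 200 (49 left) and the removal of overlapping genes (54 left) only select genes. They leave the difference of each gene that is kept unchanged, so they are no check on single genes. Depth limits the low genes most: at 50 reads in the lowest library, the median half-width of the interval was 0.63.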

Other observations

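Genes with at least 50 reads in both libraries of one line, but not in both of the other, stand outside the comparison. There were 1183 such genes for Huh7 cells, of which 112 (9.47%) rose and 156 (13.2%) fell at 25 mM glucose. For PLC cells there were 835, of which 257 (30.8%) rose and 117 (14.0%) fell. Among the members, 8.42% rose or fell in Huh7 and 27.0% in PLC cells. Near the limit of 50 reads, the shallower library (5 mM in Huh7, 25 mM in PLC cells) can favour falls in Huh7 and rises in PLC cells. Its part in these shares was not tested. The other line was not always silent: 215 of the 1183 and 195 of the 835 had 3 reads or fewer in both of its libraries. In Huh7 cells ARG1, the last enzyme of the urea cycle, had a ratio of 2.71, PZP, a protease inhibitor related to A2M, one of 3.42, and SULT1C2, a sulfotransferase, one of 0.174. PLC reads at 5 and 25 mM were 83 and 47 for ARG1, 10 and 16 for PZP and 110 and 33 for SULT1C2. In PLC cells SLC2A3, the glucose transporter GLUT3, went from 14848 to 1629 reads, a ratio of 0.207, with 2 reads in each Huh7 library. CHAC1, which degrades glutathione, went from 3134 to 196 reads in PLC cells, a ratio of 0.118, and from 593 to 35 reads in Huh7 cells, so its reads dropped in both lines. The histone genes H3C12 and H3C8 had ratios of 10.1 and 6.87 in PLC cells, while Huh7 reads went from 30 to 77 and from 4 to 12. These genes were named after their values had been seen.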
